A study of Mus musculus with 32 samples.

Results

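Brown adipose tissue was compared between Zeitgeber time (ZT) 15 and ZT18, that is, between 3 h and 6 h after the onset of the dark phase. ZT counts hours from lights on, the dark (active) phase begins at ZT12, and these are neighbouring time points in the early and middle part of the night, when mice are awake and feeding. The members of the comparison were taken from the time point in the sample labels: 4 mice at ZT15 and 4 mice at ZT18, with 1 RNA library per mouse, or 8 of the 32 libraries of a series that sampled 8 time points over 24 h. Both groups were non-fasted male C57BL/6J mice, 10 weeks old, kept on a cycle of 12 h light and 12 h dark at 22 °C with free access to chow and killed with CO2. No genotype, drug or diet differed between them, and 22 °C is a mild cold for a mouse. The tissue, iBAT, is the interscapular depot of brown fat, which produces heat, and total RNA of snap-frozen pieces was sequenced. According to the labels, the ZT15 libraries were run on lane 3 and the ZT18 libraries on lane 4, so in a direct comparison lane and time cannot be told apart.

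The circadian clock of mammalian cells is a loop of transcription factors. BMAL1 (encoded by Arntl) and CLOCK bind E-boxes in DNA and switch on the Per and Cry genes, the REV-ERB genes Nr1d1 and Nr1d2, and output factors such as Dbp. The PER and CRY proteins then silence BMAL1 and CLOCK, while REV-ERBs repress Arntl. In brown fat, transcripts for lipid uptake, lipid storage and heat production also follow the time of day, driven both by this loop and by signals from outside the cell: feeding, insulin, glucocorticoids and sympathetic nerves.

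The values are read counts per gene. Total counts ran from 17136479 to 17466245 at ZT15 and from 17501583 to 18254659 at ZT18, and the ranges do not overlap. Levels are given in CPM, counts relative to the scaled size of the library. At this depth 3 counts in a library correspond to 0.175 CPM, and that floor covers counting error only. The summed level of 13 brown adipocyte markers was 9935 to 12801 CPM at ZT15 and 10937 to 12713 CPM at ZT18. The label of the tissue was thus matched by its markers, among them Ucp1, the uncoupling protein of brown fat, at 1768 ± 426 CPM at ZT15 and 1275 ± 334 CPM at ZT18 (mean ± SD, n = 4 each, as for all means here). Skeletal muscle transcripts varied far more: 18 muscle markers summed to 9859, 1831, 6081 and 994 CPM in the ZT15 mice and to 64.8, 77.5, 2726 and 6723 CPM in the ZT18 mice, and all 18 had a negative log2 fold change, none past the threshold. The summed levels of blood, lymphoid, macrophage and granulocyte, endothelial, stromal, Schwann and neuronal, and white fat markers also overlapped between the groups, and 2 of 8 white fat markers were at 0 in all 8 libraries. No member of any marker list passed the threshold in edgeR, DESeq2 or limma-voom, and 3 were higher and 5 lower at an unadjusted p of 0.05. In whole tissue, fewer cells of a type and less RNA per cell cannot be told apart. The labels do not say whether the mice shared cages or litters, so the p-values take no account of either. For genes they measure the spread between mice within time points, estimated over all 32 libraries. They do not separate lane from time.

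At ZT18 a small set of genes differed from ZT15, most of them lower. Of 15505 genes tested with edgeR's quasi-likelihood test, 182 passed a Benjamini-Hochberg adjusted p of 0.05 (1.17%), 66 of them higher at ZT18 (0.426%) and 116 lower (0.748%). At an unadjusted p of 0.05, 2298 genes passed (14.8%). The 4 mice of one time point lay wholly above or below the 4 of the other in 1596 genes (10.3%) and in 172 of the 182. The changes were modest in size: the median fold among the 182 was 1.43, and 34 exceeded 2-fold, 13 upward and 21 downward. Protein-coding genes made up 163 of the 182. With 1 library left out at a time, 56 to 116 genes passed, fewest without ZT18 replicate 2, and 39 genes passed in every such fit. Without both libraries with the most muscle transcripts (ZT15 replicate 1 and ZT18 replicate 4), left out after their values were seen, 53 genes passed, among them Arntl, Dbp, Hlf, Tef, Fkbp5, Mt1, Dgat2, Gpat4 and mt-Atp6. Per2, Per3, Nr1d2, Klf9 and mt-Co1 then had adjusted p values of 0.107, 0.153, 0.25, 0.057 and 0.151, with their signs unchanged. Of the 77 genes followed through the alternatives, 36 lost their call in that fit, and 19 did with a muscle covariate. The median log2 fold change over all tested genes was 0.00032.

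**Figure D1:**
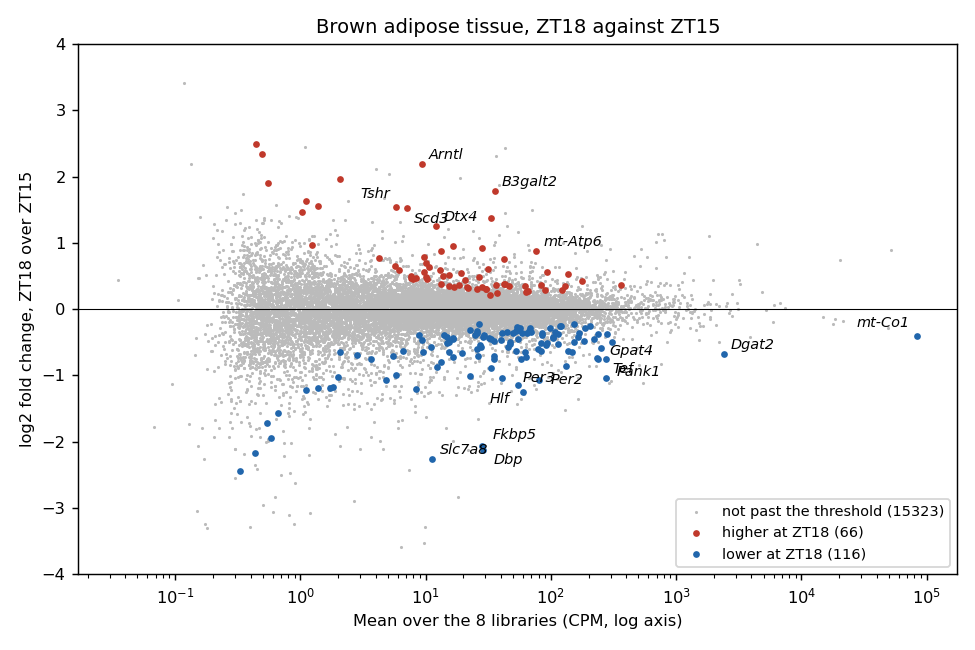
Each point is a tested gene, with its mean level over the 8 libraries on the horizontal axis (CPM, log axis) and its log2 fold change at ZT18 over ZT15 on the vertical axis, which leaves 1 gene out of view beyond 4. The 66 genes higher at ZT18 are red and the 116 lower are blue, with Arntl at the top right of zero, Dbp, Fkbp5 and Slc7a8 at the bottom, and the abundant mt-Co1 at the far right with a small decrease.

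Of the clock genes, Arntl rose at ZT18, and Dbp, Hlf, Tef, Per2, Per3 and Nr1d2 fell. Of the 4 activators 1 rose and none fell, of the 6 repressors 2 fell, of the 5 REV-ERB and ROR receptors 1 fell, and of the 6 output factors 3 fell. Their median log2 fold changes were 0.70 for the activators, -0.50 for the repressors, -0.21 for the receptors and -1.08 for the output factors. By DESeq2 the counts were 1 activator higher and 3 repressors, 2 receptors and 4 output factors lower.

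Arntl was the activator that rose. Its level was 3.21, 2.95, 2.91 and 4.34 CPM in the ZT15 mice and 17.0, 16.0, 12.0 and 16.3 CPM in the ZT18 mice (chr7:113207465-113314126, plus strand). The lowest ZT18 mouse was thus well above the highest ZT15 mouse. The log2 fold change was 2.19 (SE 0.26, adjusted p = 2.95e-05), and it passed in each of the 8 fits that left a library out. Clock, its partner, stood at 47.5, 49.8, 52.5 and 55.1 CPM at ZT15 and at 62.8, 68.1, 58.6 and 63.0 CPM at ZT18, without overlap but short of the threshold (log2 fold change 0.30, adjusted p = 0.121). Npas2, a paralogue of Clock, was near the floor at both time points, at 0.180 ± 0.134 and 0.401 ± 0.0666 CPM (adjusted p = 0.335), and at 1.98 ± 0.449 CPM at ZT21. Arntl2 gave 13.7 ± 1.20 and 14.3 ± 0.950 CPM (adjusted p = 0.862).

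Dbp, Hlf and Tef are PAR bZIP factors, which bind D-box elements and carry the clock's timing to metabolic genes, and all 3 fell. Dbp (chr7:45705088-45710203, plus strand) stood at 52.5, 45.6, 49.7 and 39.7 CPM at ZT15 and 9.70, 11.5, 12.7 and 9.17 CPM at ZT18, a log2 fold change of -2.12 (SE 0.24, adjusted p = 2.47e-05), the lowest adjusted p of all genes. Hlf went from 76.9, 71.5, 80.9 and 72.6 CPM to 30.0, 34.9, 38.2 and 32.7 CPM, with a log2 fold change of -1.15 (SE 0.16, adjusted p = 0.00015). Tef went from 327, 373, 407 and 367 CPM to 169, 193, 188 and 164 CPM, with a log2 fold change of -1.05 (SE 0.17, adjusted p = 0.00194). None of these 3 genes overlapped between the groups, and each passed in all 8 fits with a library left out. Arntl, Dbp and Tef each overlap a gene on the opposite strand (Gm45355, Sphk2 and Gm17597), and the strand setting of the counting is not given in the sources used here, so their reads could include some of that partner. Nfil3, which encodes a repressor at the same D-box elements, was on the opposite side: 25.3, 18.1, 19.6 and 25.5 CPM at ZT15 against 39.9, 25.4, 36.0 and 40.6 CPM at ZT18 (log2 fold change 0.68, adjusted p = 0.161). Bhlhe41, a repressor at E-boxes, had 24.8, 28.2, 52.6 and 36.4 CPM and 22.1, 20.4, 12.3 and 11.1 CPM (adjusted p = 0.0868), and its paralogue Bhlhe40 varied from 36.0 to 259 CPM among the 8 mice.

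Of the repressors, Per2 and Per3 fell. Per2 was at 121, 91.8, 117 and 109 CPM at ZT15 and 66.0, 55.5, 39.6 and 47.6 CPM at ZT18 (log2 fold change -1.07, SE 0.22, adjusted p = 0.0165), with no overlap. Per3 was at 195, 169, 169.5 and 146 CPM and 79.7, 101, 111 and 85.1 CPM (log2 fold change -0.85, SE 0.19, adjusted p = 0.0204), also with no overlap. With a library left out, Per2 passed in 7 of 8 fits (adjusted p = 0.0564 without ZT18 replicate 3) and Per3 in 4 of 8 (adjusted p up to 0.0826, without ZT18 replicate 1). Per1, which responds to acute signals as well as to the clock, was at 36.2, 72.2, 47.8 and 40.4 CPM and 35.4, 31.5, 70.0 and 44.7 CPM, overlapping (log2 fold change -0.11, adjusted p = 0.898). Cry1 and Cry2, which encode the partners of the PER proteins, had log2 fold changes of 0.25 and -0.15 (adjusted p = 0.414 and 0.643). Ciart, another repressor, had 4.41, 7.39, 4.72 and 4.58 CPM at ZT15 and 3.25, 2.59, 2.59 and 2.35 CPM at ZT18, without overlap and with an adjusted p of 0.0856.

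The REV-ERB genes were lower in most ZT18 mice. Nr1d2 fell, from 90.7, 76.8, 69.2 and 54.7 CPM to 31.2, 56.5, 45.9 and 38.9 CPM (log2 fold change -0.76, SE 0.18, adjusted p = 0.0354), with ZT18 replicate 2 above the lowest ZT15 mouse. Nr1d2 passed in 2 of the 8 fits with a library left out (adjusted p up to 0.14, without ZT18 replicate 1), and it did not pass in the 8 libraries alone (0.135) or with a muscle covariate (0.069). Nr1d1 had the same log2 fold change, -0.76, with 35.4, 35.6, 31.9 and 30.2 CPM at ZT15 and 13.5, 28.8, 20.7 and 15.9 CPM at ZT18, and an adjusted p of 0.0951. It had already fallen between ZT12 (124 ± 20.3 CPM) and ZT15 (33.3 ± 2.68 CPM), and at ZT21 it stood at 19.1 ± 3.43 CPM. Rora and Rorb, which encode activating receptors of the same elements, had log2 fold changes of 0.011 and -0.21, neither past the threshold.

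**Figure D2:**
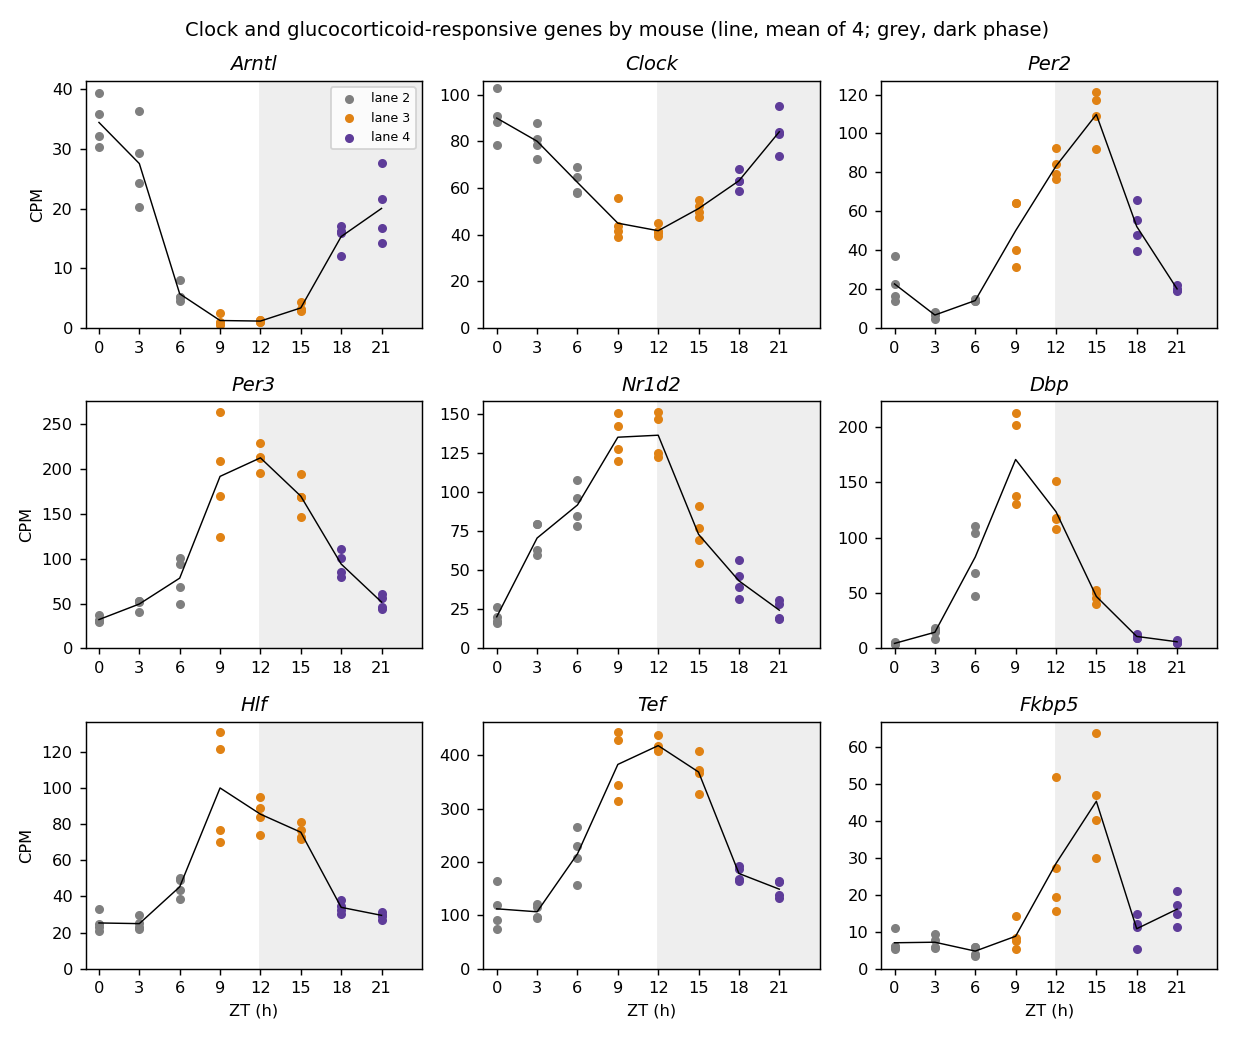
Each panel plots 1 gene in CPM against ZT in hours, with 1 point per mouse coloured by sequencing lane, a line through the means of 4 mice, and the dark phase in grey. Between ZT15 and ZT18 Arntl rises from 2.91 to 4.34 CPM to 12.0 to 17.0 CPM, Dbp, Hlf, Tef, Per2, Per3 and Nr1d2 fall, and Fkbp5 drops from its highest mean of the day, while the lane changes from 3 to 4 at the same step.

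The promoters of the 6 genes of the clock and glucocorticoid lists with the largest called changes were searched in the RefSeq promoter table (build GRCm38.p6), in the 250 bases before the RefSeq start. Of the 6, 5 had an entry, Per2 being named only. They are shown for the size of these changes within their lists, and capitals mark a match to a searched motif. Only bases outside annotated exons are printed, which leaves the last 91 bases for Dbp and none for Tef.
Arntl, chr7:113207215-113207464, plus strand: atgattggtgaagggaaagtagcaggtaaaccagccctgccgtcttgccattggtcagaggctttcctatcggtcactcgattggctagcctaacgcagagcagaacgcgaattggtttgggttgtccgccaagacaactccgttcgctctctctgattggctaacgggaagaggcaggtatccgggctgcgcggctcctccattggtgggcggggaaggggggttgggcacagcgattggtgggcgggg
Dbp, chr7:45704997-45705087, plus strand: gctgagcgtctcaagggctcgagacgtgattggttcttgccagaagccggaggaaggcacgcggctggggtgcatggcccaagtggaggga
Hlf, chr11:90390918-90391167, minus strand: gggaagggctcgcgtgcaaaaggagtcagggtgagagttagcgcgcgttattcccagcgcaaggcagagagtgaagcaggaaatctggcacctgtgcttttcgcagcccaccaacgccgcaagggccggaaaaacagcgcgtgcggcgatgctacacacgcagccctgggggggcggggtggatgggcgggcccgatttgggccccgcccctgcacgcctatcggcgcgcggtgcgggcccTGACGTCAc
Fkbp5, chr17:28486150-28486399, minus strand: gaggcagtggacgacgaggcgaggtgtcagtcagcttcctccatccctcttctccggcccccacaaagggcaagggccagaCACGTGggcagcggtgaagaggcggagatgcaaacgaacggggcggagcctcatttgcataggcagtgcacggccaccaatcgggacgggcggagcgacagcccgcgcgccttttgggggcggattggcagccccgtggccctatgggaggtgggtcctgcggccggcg
Motifs were searched on both strands. The E-box CACGTG, to which BMAL1 and CLOCK bind, was found in Fkbp5 from 169 to 164 bases before the start and in Tef from 127 to 122 bases before it, and 6.05% of 27025 promoters hold it. The cAMP response element TGACGTCA lay from 9 to 2 bases before the start of Hlf and is held by 1.62% of promoters. The D-box TTATGNAA (3.23% of promoters), the nuclear receptor element AGGTCA (13.8%) and the palindromic glucocorticoid response element (1 promoter, 0.0037%) had no match in these windows. These matches are descriptions of the letters near the start and were not tested for binding.

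Of the glucocorticoid-responsive genes Fkbp5, Klf9 and Mt1 fell at ZT18. Corticosterone, the main glucocorticoid of mice, peaks around the onset of the dark phase, and Fkbp5, a chaperone of the glucocorticoid receptor, is among its strongest target genes. Of 14 tested members of this list 3 fell and none rose, the median log2 fold change was -0.29, and 7 were lower and 1 higher at an unadjusted p of 0.05. The log2 fold change was negative in 10 members and positive in 4, up to 0.58. Fkbp5 (chr17:28399094-28517527, minus strand) stood at 63.8, 47.2, 40.3 and 30.1 CPM in the ZT15 mice and 12.1, 11.2, 5.24 and 14.8 CPM in the ZT18 mice. All ZT18 mice were below all ZT15 mice, with a log2 fold change of -2.06 (SE 0.35, adjusted p = 0.00317) that passed with any 1 library left out. Its mean was 28.5 ± 16.3 CPM at ZT12 and 16.1 ± 4.15 CPM at ZT21, and ZT15 gave the highest mean of the 8 time points.

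Klf9 and Mt1 fell as well. Klf9, a transcription factor that answers glucocorticoids and the clock, went from 86.3, 98.6, 111 and 94.1 CPM to 71.6, 71.0, 69.4 and 61.7 CPM (log2 fold change -0.51, adjusted p = 0.0188). Mt1, a metal-binding metallothionein, went from 68.6, 81.5, 83.3 and 82.0 CPM to 49.2, 38.4, 48.5 and 54.3 CPM (log2 fold change -0.73, adjusted p = 0.0198). Neither overlapped between the groups, and both missed the threshold in 2 of the 8 fits that left a library out. Mt2, its neighbour, had 11.5, 8.33, 10.1 and 6.86 CPM and 2.09, 1.82, 1.80 and 5.73 CPM (adjusted p = 0.0757), with ZT18 replicate 4 standing above the other ZT18 mice. Glul, which makes glutamine, had 2389.7, 2805, 2419 and 2639 CPM and 1833, 1647, 1765 and 2041 CPM, without overlap (adjusted p = 0.0732). Tsc22d3 and Zbtb16 gave log2 fold changes of -0.42 and -1.16 (adjusted p = 0.239 and 0.242), and the receptor gene Nr3c1 gave 0.0033.

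Gpat4 and Dgat2, of the first and last steps of triglyceride synthesis, fell. GPAT4 adds the first fatty acid to glycerol 3-phosphate, and DGAT2 adds the last one to make triglyceride. Dgat2 (chr7:99153658-99182719, minus strand) was at 2785, 2978, 2788 and 3255 CPM at ZT15 and 1370.0, 1634, 2191 and 2178 CPM at ZT18. The groups did not overlap, the log2 fold change was -0.68 (SE 0.13, adjusted p = 0.00764), and Dgat2 passed in all 8 fits with a library left out. Gpat4 was at 264, 325, 296 and 314 CPM and 135, 158, 204 and 215 CPM, again without overlap (log2 fold change -0.75, SE 0.17, adjusted p = 0.0227), with 4 of 8 such fits passing. In a fit of the 8 libraries alone neither passed (adjusted p = 0.0998 for Dgat2 and 0.0742 for Gpat4). These were the 2 of 13 members that fell, none rose, and the median was -0.19. In both genes ZT18 replicates 1 and 2 were the lowest of all mice. Dgat1, which catalyses the same step as Dgat2, had a log2 fold change of -0.11 (adjusted p = 0.758), and Agpat2, the acyltransferase of the step between, had 0.43 (adjusted p = 0.622).

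Lipid droplet proteins and the lipoprotein lipase (LPL) pathway held 1 gene each called by edgeR. DESeq2 called 3 droplet genes and 2 LPL pathway genes lower, and limma-voom called 0 and 1. Plin3, a droplet coat protein, fell from 203, 174, 157 and 180.3 CPM to 143, 125, 121 and 118 CPM (log2 fold change -0.49, adjusted p = 0.0499), 1 of 10 members, and passed in 1 of 8 fits with a library left out. It did not pass under library size or upper quartile scaling, limma-voom, no filter or the 8 libraries alone (adjusted p = 0.0517 to 0.068). Cidec, which promotes droplet fusion, had 805, 1088, 1051 and 1001 CPM and 511, 735, 730.2 and 815 CPM (log2 fold change -0.50, adjusted p = 0.0643). Lrp1, an endocytic receptor for lipoprotein remnants, fell from 404, 245, 245 and 273 CPM to 154, 151, 183 and 215 CPM (log2 fold change -0.73, adjusted p = 0.0275), 1 of 14 tested members of its list, and passed in 4 of 8 such fits, but not under library size scaling (adjusted p = 0.052) or in the 8 libraries alone (0.124). Lrp1 also lost its call without both libraries with the most muscle transcripts.

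Lpl and its inhibitor Angptl4 had opposite signs without passing. LPL releases fatty acids from circulating triglyceride-rich lipoproteins, and ANGPTL4 inactivates it. Lpl stood at 4445, 5135, 4054 and 4311 CPM in the ZT15 mice and 2755, 3379, 3396 and 3831 CPM in the ZT18 mice, which did not overlap (log2 fold change -0.43, SE 0.12, adjusted p = 0.0819). Angptl4 stood at 209, 87.6, 54.8 and 63.8 CPM and 118, 165, 287 and 422 CPM, with ZT15 replicate 1 above 2 of the ZT18 mice (log2 fold change 1.25, SE 0.45, adjusted p = 0.17). Angptl8, a partner of the ANGPTL proteins that rises with feeding, varied from 19.2 to 156 CPM at ZT15 and from 30.1 to 91.0 CPM at ZT18 (adjusted p = 0.677). Gpihbp1, Cd36 and Vldlr, which anchor LPL, take up fatty acids and bind lipoproteins, had log2 fold changes of -0.19, -0.15 and -0.12, none past the threshold.

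No member of the de novo lipogenesis list passed, although 15 of its 16 log2 fold changes were positive. De novo lipogenesis makes fatty acids from glucose carbon through Acly, Acaca and Fasn, and Scd1 then desaturates them. With edgeR 0 of 16 passed and 6 were higher at an unadjusted p of 0.05, the median log2 fold change was 0.77, and DESeq2 and limma-voom also called 0. Fasn was at 2931, 19408, 17314 and 20609.6 CPM at ZT15 and 29663, 29550.0, 22031 and 19902 CPM at ZT18 (log2 fold change 0.75, adjusted p = 0.488). The ZT15 mouse at 2931 CPM, replicate 1, is the one with the most muscle transcripts, and ZT15 replicate 4 lay above ZT18 replicate 4. With the summed muscle level as a covariate the log2 fold change of Fasn was 0.67 (adjusted p = 0.592). Scd1 was at 14809.6, 42964, 44119.7 and 45033 CPM and 73976, 74806, 66330.3 and 56478 CPM, with no overlap (log2 fold change 0.89, SE 0.32, adjusted p = 0.18). Acaca, Acss2, Scd2 and G6pdx were also without overlap, with log2 fold changes of 1.11, 1.13, 1.14 and 0.49 and adjusted p values of 0.22, 0.198, 0.214 and 0.316. Srebf1, which encodes the transcription factor of this pathway, was the one negative member, at -0.35 (adjusted p = 0.484). The list summed to 23039 CPM in ZT15 replicate 1, to between 75961 and 82593 CPM in the other ZT15 mice and to between 92206 and 130483 CPM in the ZT18 mice. Without ZT15 replicate 1 the log2 fold changes were 0.40 for Fasn, 0.62 for Scd1 and 0.81 for Acaca, and the list still had 0 called genes.

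Scd3, a desaturase outside the lists, did rise. It was at 1.47, 3.66, 4.31 and 5.16 CPM at ZT15 and 10.6, 12.0, 11.4 and 7.86 CPM at ZT18 (log2 fold change 1.52, SE 0.35, adjusted p = 0.0308). It lies in a cluster of closely related Scd genes on chromosome 19, and reads shared with abundant paralogues could be split among them, so its value is uncertain.

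Most genes of cholesterol synthesis and other SREBP-2 targets also had a positive sign, without passing in edgeR. Of 24 tested members 23 had a positive log2 fold change with a median of 0.38, 10 were higher at an unadjusted p of 0.05, none passed in edgeR or limma-voom, and DESeq2 called 2. Sqle, which makes squalene epoxide, was at 6.99, 20.3, 15.1 and 16.5 CPM and 46.6, 41.6, 22.7 and 22.4 CPM (log2 fold change 1.18, adjusted p = 0.164). Pmvk, an enzyme of the mevalonate route, was at 25.6, 55.1, 44.7 and 52.2 CPM and 103, 99.1, 74.9 and 71.2 CPM (log2 fold change 0.97, adjusted p = 0.0839). In both the groups did not overlap, ZT15 replicate 1 was the lowest mouse, and ZT18 replicates 1 and 2 were the highest. The whole list summed to 1029 CPM in ZT15 replicate 1 and to between 1677 and 1925 CPM in the other ZT15 mice. These overlapped the ZT18 mice, at 1826 to 2672 CPM.

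**Figure D3:**
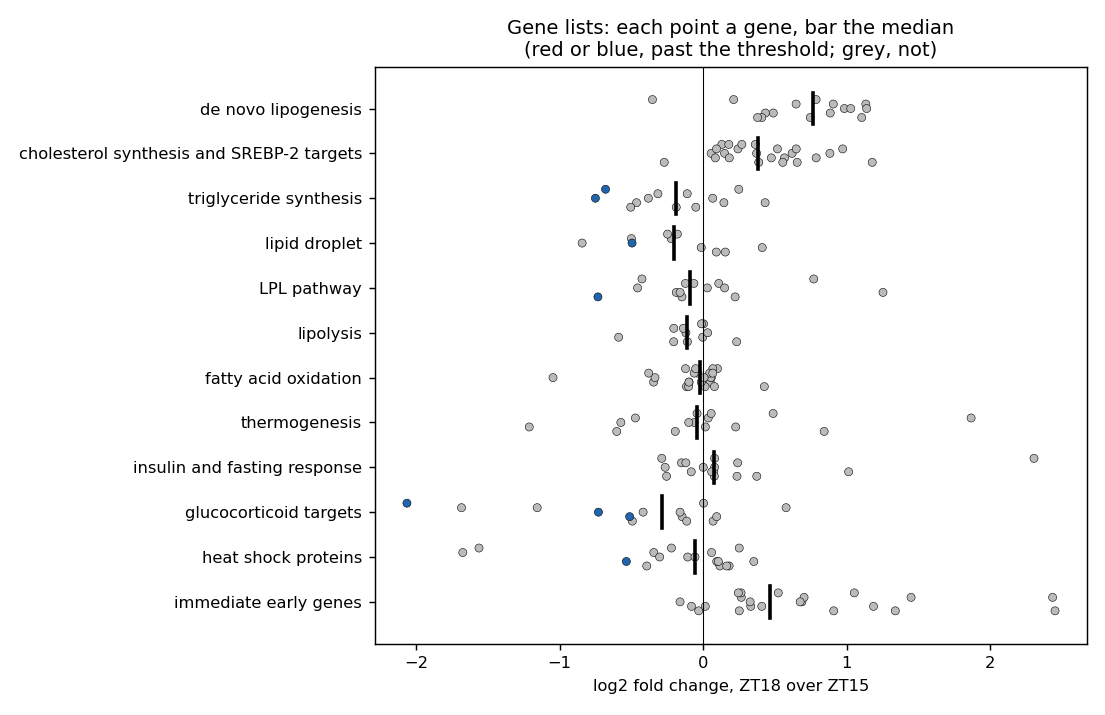
Each point is a tested gene of a list, placed by its log2 fold change at ZT18 over ZT15, with a black bar at the list's median. Points past the threshold are blue (lower) and occur in triglyceride synthesis (2), lipid droplet (1), LPL pathway (1), glucocorticoid targets (3) and heat shock proteins (1), while de novo lipogenesis sits to the right with a median of 0.77 and no point past the threshold.

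No listed gene of heat production or of fasting passed in edgeR, and Dio2 and Irs2 spread widely among the ZT18 mice. None of 15 tested thermogenesis genes and none of 17 insulin and fasting genes passed in edgeR or limma-voom, and DESeq2 called 1 thermogenesis gene lower and 1 fasting gene higher. At an unadjusted p of 0.05, 3 thermogenesis genes were higher and 4 lower, and 2 fasting genes were higher and 1 lower. Dio2, the deiodinase that activates thyroid hormone in brown fat and follows sympathetic tone, was at 12.2, 30.6, 10.5 and 13.3 CPM at ZT15 and 7.49, 30.7, 108 and 96.9 CPM at ZT18. Irs2, an insulin receptor substrate that is induced in fasting, was at 18.8, 12.5, 10.3 and 6.98 CPM and 8.65, 16.0, 108 and 108 CPM. In each, ZT18 replicates 3 and 4 stood above every ZT15 mouse, while ZT18 replicate 1 stood below or among them. Their log2 fold changes were 1.87 (SE 0.69, adjusted p = 0.184) and 2.31 (SE 0.70, adjusted p = 0.107).

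Some other genes divided the ZT18 mice in the same way, and how many did so was not counted. Pdk4, which spares glucose by inhibiting pyruvate dehydrogenase, was at 623, 473, 400.5 and 334 CPM and 419, 710.1, 1191 and 1377 CPM (adjusted p = 0.149). Nr4a1, an immediate early gene, was at 26.7, 9.99, 8.97 and 8.39 CPM and 4.24, 22.7, 139 and 128 CPM (adjusted p = 0.374). The list of 22 immediate early genes, which answer acute stimuli, had a median of 0.47 with 0 called by edgeR, DESeq2 or limma-voom and 3 higher at an unadjusted p of 0.05. Pck1, which makes glycerol 3-phosphate from pyruvate in fat, was at 2734, 1612, 1304 and 1669 CPM and 879, 1248, 2529.6 and 3071 CPM (log2 fold change 0.078). Fasn ran the other way, with ZT18 replicates 1 and 2 at the top. ZT18 replicates 3 and 4 are also the ZT18 libraries with muscle transcripts (2726 and 6723 CPM against 64.8 and 77.5). With the summed muscle level as a covariate the log2 fold changes were 2.33 for Irs2, 1.87 for Dio2 and 1.10 for Pdk4 (adjusted p = 0.124, 0.219 and 0.134). These values compare the time points, so they say nothing on the division within ZT18, and its cause was not tested.

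Ucp1 and the beta-3 adrenergic receptor gene did not pass. Ucp1 was at 1134, 1994, 1911 and 2033 CPM at ZT15 and 955, 1286, 1733 and 1126 CPM at ZT18 (log2 fold change -0.47, adjusted p = 0.448). Adrb3 was at 90.1, 98.5, 97.0 and 162 CPM and 159.9, 146, 224 and 273 CPM (log2 fold change 0.84, adjusted p = 0.142). Tshr, the thyrotropin receptor, rose: 3.42, 2.66, 2.45 and 3.40 CPM at ZT15 and 8.10, 12.5, 7.83 and 6.28 CPM at ZT18, without overlap (log2 fold change 1.54, SE 0.27, adjusted p = 0.0038). Ckb, a creatine kinase of brown fat, had 45.2, 21.6, 26.0 and 29.3 CPM and 13.2, 11.3, 16.1 and 12.2 CPM (log2 fold change -1.21, adjusted p = 0.104), and it is also expressed in muscle.

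**Figure D4:**
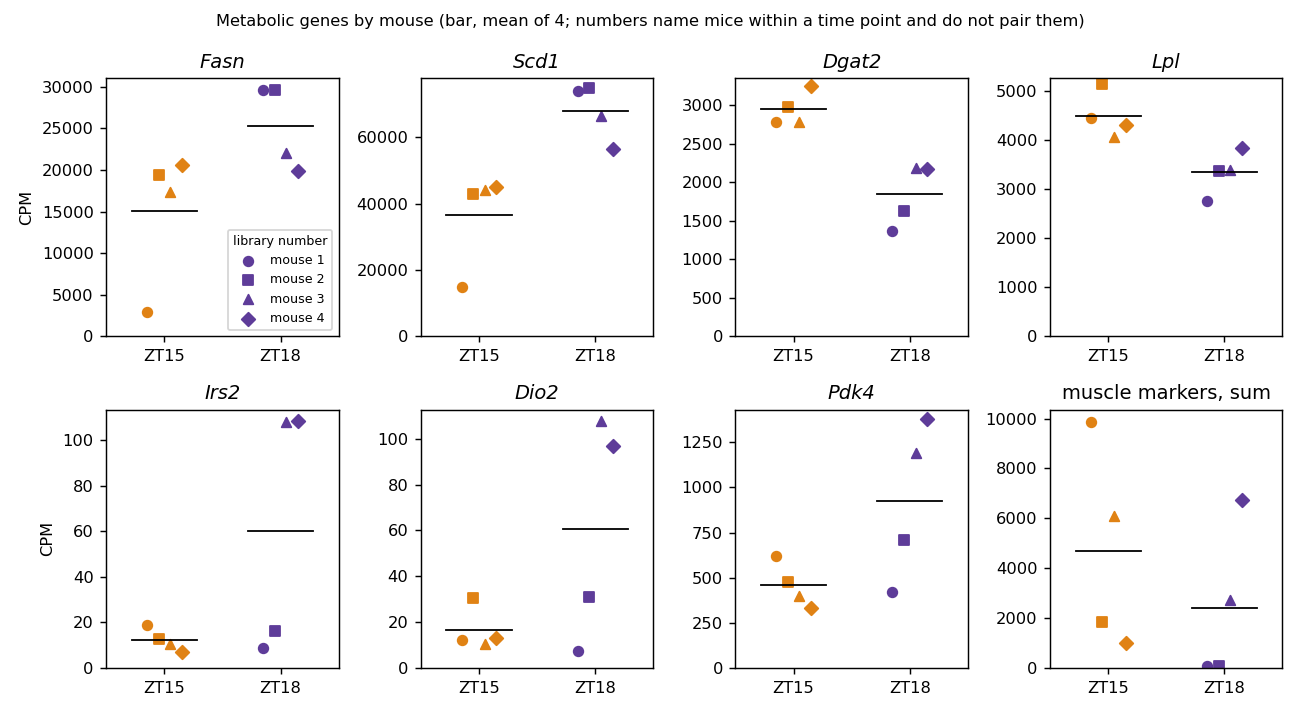
CPM of 7 genes and the summed CPM of the 18 muscle markers in each mouse at ZT15 (orange) and ZT18 (purple), with the replicate number as the marker shape and a bar at the mean of 4. Replicate 1 at ZT15 lies apart in Fasn (2931 CPM) and Scd1 (14810 CPM), Dgat2 and Lpl do not overlap between the time points, and Irs2, Dio2 and Pdk4 divide ZT18 replicates 3 and 4 from 1 and 2.

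Mitochondrially encoded transcripts took a smaller share of the reads at ZT18. The mitochondrial genome encodes 13 subunits of the respiratory chain and 2 ribosomal RNAs. Their share with the transfer RNAs was 26.7, 23.3, 22.9 and 22.8% of all counts in the ZT15 mice and 18.5, 18.7, 20.5 and 20.7% in the ZT18 mice. All ZT18 mice were below all ZT15 mice. The mean share decreased by 4.33 percentage points (from 23.9 ± 1.88% to 19.6 ± 1.18%, exact permutation test, two-sided, p = 0.0286, the smallest that 4 against 4 allows). The 4 ZT12 libraries held 22.4 to 23.9% and the 4 ZT21 libraries 21.2 to 24.0%, so the ZT18 libraries were below both neighbours. With any 1 library left out the difference ran from -4.71 to -3.40 points, each with an exact permutation p of 0.0571, the smallest that 3 against 4 allows.

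Single mitochondrial genes moved in both directions. Of 15, mt-Co1 fell and mt-Atp6 rose in edgeR, while 6 were higher and 3 lower at an unadjusted p of 0.05. DESeq2 called 3 higher and 2 lower, and the 8 libraries alone gave 3 higher and 0 lower. mt-Co1, a catalytic subunit of cytochrome c oxidase, was at 107951, 88634, 92682 and 96548 CPM at ZT15 and 68612, 71815, 74422 and 76256 CPM at ZT18 (log2 fold change -0.41, adjusted p = 0.0352), with no overlap, and passed in 1 of 8 fits with a library left out, but not under library size scaling, no filter, the 8 libraries alone or a muscle covariate (adjusted p = 0.0654 to 0.133). mt-Atp6, a subunit of ATP synthase, was at 53.2, 54.5, 52.8 and 55.2 CPM and 108, 98.9, 105 and 83.0 CPM (log2 fold change 0.87, adjusted p = 0.0126), and passed in all 8. mt-Cytb and mt-Nd4, both abundant, had log2 fold changes of -0.29 and -0.23, while mt-Co2, mt-Co3 and mt-Nd3 had 0.64, 0.55 and 0.63. All 5 were without overlap and short of the threshold in edgeR.

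The rise of mt-Atp6 is uncertain. The gene overlaps mt-Atp8 and mt-Co3 and has near-identical nuclear copies, and how reads were shared among them was not tested. The unprocessed pseudogene Gm28437 at chr1:24613189-24613971 lies in such a nuclear stretch and rose with it, from 33.6, 31.4, 29.7 and 31.1 CPM to 58.2, 52.0, 56.4 and 47.0 CPM (log2 fold change 0.76, adjusted p = 0.0212). In all, 13 of the 182 called genes were pseudogenes, 9 of them higher, out of 970 pseudogenes tested. Of all 15505 tested genes, 1.17% were called. The reads of a pseudogene cannot be told from those of its parent gene where the sequences match.

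Outside the lists, the called genes with the largest changes were of many kinds. Rankings here are among called genes without overlap whose mean was 1 CPM or more. Among the 12 of these with the highest log2 fold change, beside Arntl, Tshr and Scd3, were Dtx4, an E3 ubiquitin ligase of the Notch pathway, Unc13a and Med12l, the uncharacterised coding genes Gm10642 and Gm10762, and the pseudogenes Gm12537, Gm6210 and Gm7899. Dtx4 was at 9.14, 7.45, 5.13 and 7.16 CPM at ZT15 and 15.0, 17.9, 15.9 and 19.7 CPM at ZT18 (log2 fold change 1.25, SE 0.15, adjusted p = 2.95e-05). It rose at each step of the night, from 4.47 ± 0.457 CPM at ZT12 to 31.9 ± 1.38 CPM at ZT21. Gm10762 went from 9.62, 10.3, 14.0 and 11.3 CPM to 26.0, 22.0, 21.1 and 18.7 CPM (log2 fold change 0.96, adjusted p = 7.28e-05). Gm10642 and Gm12537 had log2 fold changes of 1.97 and 1.63 at low levels, below 5 CPM in every mouse. Unc119, a lipid-binding trafficking protein, completed this set with 0.87.

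Among the 12 of these with the lowest log2 fold change, beside Dbp, Fkbp5, Hlf and Per2, were Slc7a8, Fbxo31, Uhrf1, Prom1 and Rufy4, the antisense RNA 2900089D17Rik and the pseudogenes Gm9523 and Gm16581. Slc7a8, a transporter of neutral amino acids, was at 37.8, 11.4, 8.04 and 17.5 CPM at ZT15 and 3.53, 4.03, 3.49 and 4.53 CPM at ZT18 (log2 fold change -2.26, SE 0.58, adjusted p = 0.0497). ZT15 replicate 1 was far above the others, and without it the adjusted p was 0.199. Fbxo31, a subunit of a ubiquitin ligase, went from 124, 71.2, 77.2 and 65.1 CPM to 32.4, 28.6, 35.9 and 44.4 CPM (log2 fold change -1.25, adjusted p = 0.00749) and passed with any 1 library left out. Uhrf1, which maintains DNA methylation in dividing cells, went from 16.3, 11.3, 10.5 and 8.51 CPM to 5.29, 4.42, 4.62 and 5.79 CPM (log2 fold change -1.21, adjusted p = 0.0124).

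By change in mean level among called genes without overlap, the 5 largest rises were in Ctnna1, Lgals1, Capn2, mt-Atp6 and Ankef1, and the 5 largest falls in mt-Co1, Dgat2, Tef, Pank1 and Gpat4. Pank1, which catalyses the first step of coenzyme A synthesis, went from 368, 353, 307 and 356 CPM to 195, 196, 222 and 204 CPM, with no overlap (log2 fold change -0.76, SE 0.13, adjusted p = 0.00317). Slc5a6, which imports pantothenate, the precursor of coenzyme A, and biotin, also fell, from 37.4, 33.9, 29.1 and 30.6 CPM to 18.7, 19.4, 19.6 and 22.5 CPM (log2 fold change -0.71, adjusted p = 0.00738). Slc5a6 was singled out after its values were seen. Lgals1, a galectin, rose from 274, 331, 329 and 325 CPM to 416, 420.4, 436 and 349 CPM (log2 fold change 0.36, adjusted p = 0.0392). Ctnna1, which links cadherins to actin, rose from 151, 150.5, 147 and 159 CPM to 204, 249.8, 188 and 172 CPM (log2 fold change 0.42, adjusted p = 0.032). With a library left out Lgals1 passed in 1 of 8 fits and Ctnna1 in 2.

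A few further list members passed. Bag3, a co-chaperone of HSP70, fell from 64.7, 42.3, 54.5 and 60.1 CPM to 35.7, 34.1, 43.3 and 39.9 CPM (log2 fold change -0.53, adjusted p = 0.0287), 1 of 17 heat shock proteins, and passed in 2 of 8 fits with a library left out. Hspa1a, which encodes a stress-induced HSP70, was at 11.4, 1.06, 13.2 and 13.5 CPM and 3.20, 2.48, 2.25 and 4.31 CPM, ZT15 replicate 2 being the lowest of all 8 mice (log2 fold change -1.67, adjusted p = 0.0606). Nfe2l2, which encodes the antioxidant regulator NRF2, fell from 100.2, 133, 160.3 and 141 CPM to 96.7, 96.4, 95.0 and 84.6 CPM (log2 fold change -0.52, adjusted p = 0.0478). Prdx6, a peroxidase, fell from 225, 218, 214 and 233 CPM to 185, 196, 191 and 176 CPM (log2 fold change -0.25, adjusted p = 0.031), and these were the 2 of 18 antioxidant genes that passed. Each passed in 1 of 8 fits with a library left out, neither passed without a filter or in the 8 libraries alone, and Nfe2l2 did not pass in limma-voom (adjusted p = 0.0593).

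Naprt, which makes NAD from nicotinic acid, fell from 34.6, 31.1, 33.3 and 32.5 CPM to 24.1, 26.0, 25.2 and 23.3 CPM (log2 fold change -0.42, adjusted p = 0.00448), 1 of 15 tested genes of its list, and it passed with any 1 library left out. Nrg4, a neuregulin secreted by brown fat, fell from 153, 204, 194 and 199.6 CPM to 148, 142, 156 and 139 CPM (log2 fold change -0.36, adjusted p = 0.0467), 1 of 12 tested secreted factors. Of 78 ribosomal protein genes Rps24 rose (log2 fold change 0.29, adjusted p = 0.0481), and of 38 splicing factors Hnrnpdl rose (log2 fold change 0.29, adjusted p = 0.0287). With a library left out Rps24 passed in 2 of 8 fits, Hnrnpdl in 1 and Nrg4 in 1, and neither Rps24 nor Hnrnpdl passed under library size scaling (adjusted p = 0.105 and 0.063), no filter, the 8 libraries alone or a muscle covariate. The other lists (lipolysis, elongation and desaturation, fatty acid oxidation, nuclear complex I, glycolysis, cold-inducible RNA-binding proteins, ER chaperones, the integrated stress response, proteasome, collagens, cell cycle and autophagy) held no called gene in edgeR. DESeq2 called 1 gene in elongation, 2 in fatty acid oxidation, 1 in glycolysis, 1 in the integrated stress response, 1 among collagens and 2 in autophagy, and limma-voom called 1 in autophagy. At an unadjusted p of 0.05, 11 of 37 proteasome, 6 of 37 complex I and 11 of 78 ribosomal protein genes were higher, none lower. Of all 15505 tested genes 14.8% passed that threshold in either direction.

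Since lane and time cannot be told apart between these 8 libraries, and no lane held both time points, the change from ZT15 to ZT18 was also predicted from a 24 h cosine fitted to all 32 libraries beside lane as an additive factor. That fit follows only a smooth daily curve. It called 123 genes (0.793%), and 17 of the 182 passed in it as well. Of the 182, 106 kept the sign and 76 had the opposite sign. Among the 17 were Arntl, Dtx4, Tshr, Glrx, Gm10762 and Grk5, which were higher at ZT18, and Dbp, Hlf, Tef, Per3, Nr1d2, Slc5a6, Por, Nrg4, Angptl2 and Gstt2, which were lower.

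Dbp, Hlf and Tef passed beside lane too, while Per2 (-0.29, adjusted p = 0.509) and the glucocorticoid genes that fell in the direct comparison did not. The change was -2.15 for Dbp (adjusted p = 1.04e-11), -0.56 for Tef (adjusted p = 0.0018), -0.46 for Hlf (adjusted p = 0.00776) and 1.39 for Arntl (adjusted p = 3.85e-05), all on the log2 scale. Nfil3, which missed the threshold in the direct comparison, was higher beside lane (0.91, adjusted p = 0.0109). Npas2 (1.76, adjusted p = 1.14e-05) and Nr1d1 (-1.09, adjusted p = 0.000103), which had also missed it, passed too. Clock and Cry1, likewise, passed beside lane, at 0.39 (adjusted p = 3.08e-05) and 0.77 (adjusted p = 1.06e-06). Fkbp5 was at 0.38 (adjusted p = 0.569) and Klf9 at -0.039 (adjusted p = 0.877). Of the whole glucocorticoid list, 1 member was called higher in this fit and 0 lower. Dgat2 was at -0.15 (adjusted p = 0.335) and Gpat4 at -0.33 (adjusted p = 0.107). Of the heat shock proteins 7 were higher in this fit, among them Hsph1 at 1.04 and Hspb1 at 0.69, with log2 fold changes of -0.39 and -0.30 in the direct comparison. Glrx, a glutaredoxin, passed both ways: 7.88, 6.38, 7.28 and 6.86 CPM at ZT15 and 12.3, 13.2, 11.1 and 12.6 CPM at ZT18, with 0.79 directly and 0.64 beside lane.

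**Figure D5:**
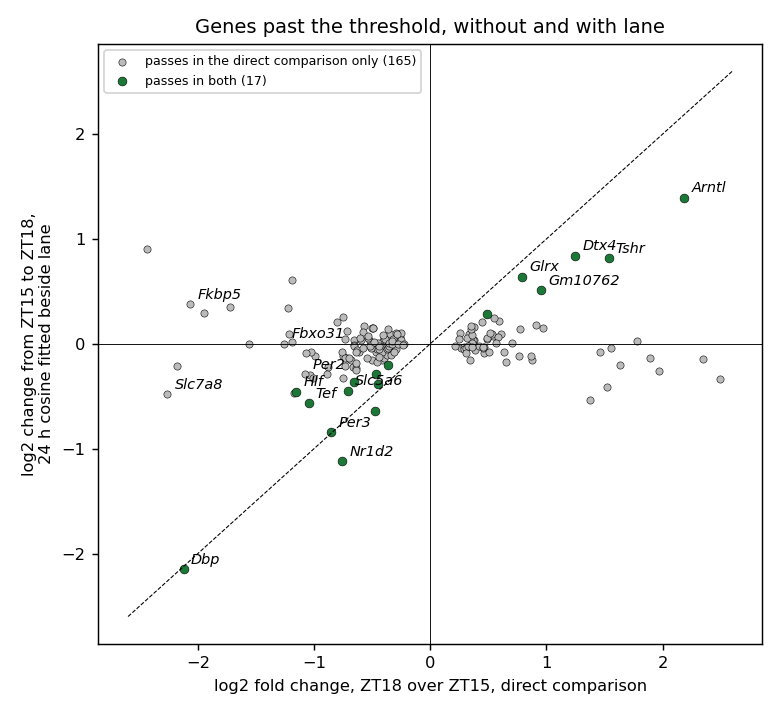
The 182 called genes are placed by their log2 fold change at ZT18 over ZT15 (horizontal axis) and by the log2 change predicted by a 24 h cosine fitted beside lane (vertical axis), with the line of equal values dashed. The 17 genes that passed in both are green and include Arntl, Dbp, Per3 and Dtx4, while Fkbp5 lies above zero on the vertical axis, at 0.38.

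The step from ZT15 to ZT18 was also set against the steps on each side of it. Between ZT12 and ZT15, both on lane 3, 472 genes differed, and between ZT18 and ZT21, both on lane 4, 320 did. The step from ZT15 to ZT18 differed from the preceding one in 75 genes (0.484%) and from the following one in 11 (0.0709%). Each difference shares a time point between its steps, so their values are not independent. Several genes had a higher mean at ZT15 than at ZT12 or ZT18. The difference of the 2 steps was -2.73 on the log2 scale for Fkbp5 (adjusted p = 0.0236), and Plin3 (-1.07, adjusted p = 0.0212), Nfe2l2 (-1.09, adjusted p = 0.0236) and Pank1 (-1.11, adjusted p = 0.0153) had the same sign. Bag3 rose from 33.6 ± 1.83 CPM at ZT12 to 55.4 ± 9.68 CPM at ZT15 and then fell to 38.3 ± 4.17 CPM (difference -1.25, adjusted p = 0.00461). Klf9 had its lowest mean of these 4 time points at ZT18 and returned to 93.2 ± 8.93 CPM at ZT21 (difference from the following step -0.96, adjusted p = 0.0445). Arntl and Dbp did not differ in pace from either neighbouring step past the threshold: the difference from the preceding step was 0.65 for Arntl (adjusted p = 0.611) and -0.73 for Dbp (adjusted p = 0.436). Missing the threshold does not show an equal pace.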

How the data were processed

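Per the labels and the study's methods, total RNA of iBAT pieces was sequenced as stranded paired-end libraries, 1 per mouse. The authors aligned the reads with GSNAP to mm10 and counted them per gene with HTSeq (version 0.6.1). Whether that counting used strand is not given in the sources used here. The deposited values are raw counts, not normalized, and total counts of the 8 libraries ran from 17136479 to 18254659.

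Counts of all 32 libraries were filtered for low values by time point (15505 genes left, with 99.9% of counts), scaled by TMM (factors 0.986 to 1.09 in the 8 libraries) and fitted with edgeR 4.0.16 in R 4.3.3. The contrast of ZT18 and ZT15 was tested by quasi-likelihood, with Benjamini-Hochberg adjustment over all tested genes. Log2 fold changes are ZT18 over ZT15. DESeq2 1.42.0, limma-voom (limma 3.58.1), 3 other scalings, 2 other filters, a fit of the 8 libraries alone, the replicate number as a block, removal of mitochondrially encoded genes, a test against a 1.5-fold change, a stricter threshold of 0.01, a 24 h cosine with lane, and each library left out were the alternatives. Leaving out the 2 libraries with the most muscle transcripts, and a muscle covariate, were added after seeing the data. The mitochondrial share was compared by an exact permutation test (scipy 1.17.1). Coordinates are GRCm38 from GENCODE M21, a release other than the one the authors counted with.

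On data simulated for this comparison (15345 genes), 35.8%, 67.7% and 86.4% of genes changed 1.5-, 2- and 3-fold were recovered, with 2 false calls. The simulated counts held no lane shift and no difference in muscle, so the false calls do not cover errors from either. No pair of replicates agreed within sampling noise (lowest chi-square per degree of freedom 7.59 over 12 pairs, genes with at least 10 counts).

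The comparison and its 41 gene lists were chosen with earlier results of these data known. Named genes were list members that passed or that define a step of a pathway, the 12 highest and 12 lowest log2 fold changes among called genes without overlap whose mean reached 1 CPM, and the 5 largest rises and falls in mean CPM among called genes without overlap. Some genes that meet this rule are not reported here.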

Additional observations from a re-analysis of the deposited data

Results flagged for a closer look

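In 11 of 158 groups of 4 mice checked, 1 mouse stood apart from the other 3 by Dixon's 95% criterion for groups of 4, where chance gives about 1 in 20. Of these, 7 were ZT15 replicate 1, the library with the most muscle transcripts (18 markers summing to 9859 CPM). It was low in Scd1 (14809.6 CPM, others 42964 to 45033), Ucp1 (1134 CPM, others 1911 to 2033), Mt1 (68.6 CPM, others 81.5 to 83.3) and Lgals1 (274 CPM, others 325 to 331). It was high in Nr4a1 (26.7 CPM, others 8.39 to 9.99), in mitochondrial share (26.7%, others 22.8 to 23.3) and in total counts (17466245, others 17136479 to 17167267). ZT15 replicate 2 was high in Dio2 (30.6 CPM, others 10.5 to 13.3) and Ciart (7.39 CPM, others 4.41 to 4.72). ZT18 replicate 4 was low in Nfe2l2 (84.6 CPM, others 95.0 to 96.7) and high in Mt2 (5.73 CPM, others 1.80 to 2.09). The part of muscle in these values of single mice was not tested.

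The step from ZT15 to ZT18 differed from that between ZT12 and ZT15 (edgeR, adjusted over all genes) in Nfe2l2 (difference on the log2 scale -1.09), Naprt (-0.58), Plin3 (-1.07), Fkbp5 (-2.73), Bag3 (-1.25), Pank1 (-1.11), the pseudogene Gm16581 (-2.47) and Hspa1a (-4.87). It differed from that between ZT18 and ZT21 in Klf9 (-0.96), mt-Atp6 (1.51), Gm10762 (1.18) and the pseudogenes Gm7899 (3.65) and Gm6210 (3.45). In every one of these the 2 steps compared share 4 mice, and a change of lane falls in 1 of the 2 steps.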

How the results depend on the processing

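The direct comparison called 182 genes, 66 higher and 116 lower. The number stayed within 1.5 times of that under the other scalings (145 to 177), limma-voom (169), a mean of at least 1 CPM (189) and the mitochondrial genes removed (173). The cosine with lane called 123, but only 17 of the 182 passed in it and 76 of them had the opposite sign. DESeq2 called 374 (127 higher, 247 lower), of which 162 were among the 182. No filter gave 98 (25 and 73), the 8 libraries alone 76 (28 and 48), a threshold of 0.01 32 (11 and 21) and a test against a 1.5-fold change 3 (2 and 1). Leaving out 1 library gave 56 (without ZT18 replicate 2) to 116 (without ZT15 replicate 2), 19 to 40 higher and 37 to 79 lower, so each of the 8 libraries moved the number by over 1.5 times. Without both libraries with most muscle, 53 passed (16 and 37), and with a muscle covariate 116 (34 and 82), of which 112 were among the 182. Both were added after seeing the data. The labels number mice 1 to 4 at each time point, but same-numbered mice did not deviate together (correlations -0.404, 0.346, 0.214 and -0.576, and not every mouse correlated best with its own number). The replicate block called 159 genes (55 and 104), 150 of them among the 182, and in the 8 libraries alone 4 (1 and 3). Those 4 were 1 clock activator and 3 clock output factors, so no clock repressor, glucocorticoid or triglyceride synthesis gene passed there. The mitochondrial share differed by -4.33 percentage points also without transfer RNAs, and by -4.71 to -3.40 with 1 library left out, where the exact permutation test could not go below 0.0571.

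Beside lane, the cosine fit called 69 genes higher and 54 lower, and 36 of the 77 genes followed through the alternatives had the opposite sign. Their changes on the log2 scale were Uhrf1 0.091, Unc119 -0.15, Angptl4 -0.025, Dio2 -0.51, Nfe2l2 0.029, Pdk4 -0.16, Naprt 0.019, Nr4a1 -0.57, Plin3 0.15, Fkbp5 0.38, Scd3 -0.41, Rps24 -0.029, Glul 0.037, Prdx6 0.032, Prom1 0.014, Hnrnpdl -0.049, Bag3 0.057, Dusp4 -0.53, Ucp1 0.10, Scd1 -0.083, Ctnna1 -0.021, Irs2 -0.87, Fbxo31 0.0028, mt-Co1 0.085, mt-Co2 -0.099, mt-Atp6 -0.11, mt-Cytb 0.073, Lgals1 -0.026, Gm10642 -0.26, Gm16581 0.61, Hspa1a 1.18, Gm12537 -0.21, Gm28437 -0.11, Gm7899 -0.080, Gm9523 0.35 and Gm6210 -0.035. None of these 36 was called in that fit. Of other genes named in the text, Hsph1 (1.04) and Hspb1 (0.69), not called directly, turned sign and were called in it, and Mat2a turned to 0.038. The cause was not tested. Among the other alternatives a sign turned only in Per1, at 0.13 without ZT15 replicate 2 and 0.023 without ZT18 replicate 2, within a range of -0.40 to 0.13 with 1 library left out. Of the genes followed, the calls that ended in the 8 libraries alone (adjusted p = 0.0503 to 0.161) were Dgat2, Gpat4, Plin3, Lrp1, Nr1d2, mt-Co1, Bag3, Nfe2l2, Prdx6, Nrg4, Rps24, Hnrnpdl, Scd3, Slc7a8, Lgals1, Ctnna1, Ankef1, Med12l, Rufy4 and Prom1 among others. Under library size scaling Plin3, Lrp1, mt-Co1, Rps24, Hnrnpdl, Slc7a8, Unc119 and Tars did not pass, in limma-voom Plin3, Nfe2l2, Slc7a8, Unc119, Unc13a and B3galt2, and with the replicate block Plin3, Nfe2l2, Nrg4, Rps24, Unc119, Unc13a, Tars and Dusp4, pseudogenes and antisense RNAs aside. Genes under the floor of 0.175 CPM could not be compared at this depth.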

Other observations

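The genes here were picked after their values were seen and belong to none of the lists above. Angptl2, a secreted angiopoietin-like protein, fell from 190.0, 199, 153 and 184 CPM in the ZT15 mice to 112, 119, 115 and 116 CPM in the ZT18 mice (log2 fold change -0.65, SE 0.13, adjusted p = 0.0139 by edgeR). The 4 ZT18 mice lay close together, below all ZT15 mice. Angptl2 passed with any 1 library left out and also beside lane (-0.37, adjusted p = 0.0168). Por, the reductase that passes electrons to microsomal cytochrome P450 enzymes, fell from 214, 273, 275 and 259.8 CPM to 176, 189, 204 and 179 CPM (log2 fold change -0.45, adjusted p = 0.0392), and Gstt2, a glutathione transferase, fell from 35.2, 40.9, 46.4 and 40.6 CPM to 30.4, 27.3, 30.7 and 28.9 CPM (log2 fold change -0.48, adjusted p = 0.0246). Both passed beside lane (-0.38 and -0.64, adjusted p = 0.000181 and 6.26e-07).

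Cars and Tars, which encode the enzymes that charge transfer RNAs with cysteine and threonine, rose. Cars was at 17.6, 14.8, 14.1 and 15.7 CPM at ZT15 and 24.6, 23.2, 20.6 and 22.0 CPM at ZT18 (log2 fold change 0.54, adjusted p = 0.00532), and it passed with any 1 library left out. Tars was at 31.5, 36.9, 33.3 and 33.3 CPM and 41.1, 42.1, 38.6 and 38.4 CPM (log2 fold change 0.25, adjusted p = 0.0499), without overlap, passed in 1 of the 8 fits with a library left out, and did not pass under any other scaling tried (adjusted p = 0.0544 to 0.0728). Mat2a, which makes the methyl donor S-adenosylmethionine, fell from 310.1, 290.1, 310.3 and 306 CPM to 210.1, 217, 191 and 187 CPM (log2 fold change -0.59, adjusted p = 0.0198). Osbpl5, a lipid transfer protein of the oxysterol-binding family, fell from 49.8, 37.9, 43.5 and 41.7 CPM to 23.7, 21.9, 25.6 and 22.1 CPM (log2 fold change -0.89, adjusted p = 0.000434), and passed in all 8 such fits. Beside lane, Cars, Tars, Mat2a and Osbpl5 did not pass (0.076, 0.049, 0.038 and -0.29, adjusted p = 0.614, 0.602, 0.889 and 0.15). Usp2, a deubiquitinase with daily rhythms in many tissues, fell from 66.9, 53.8, 57.5 and 40.7 CPM to 22.6, 25.6, 32.4 and 26.3 CPM (log2 fold change -1.03, adjusted p = 0.0393), passed in 1 of the 8 fits, and overlaps 2 genes on the opposite strand.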
